A study of Mus musculus with 20 samples.

Results

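The genes described here are 10 members of the insulin-like growth factor (IGF) axis of mouse white fat: the ligand gene Igf1, the receptor genes Igf1r and Igf2r, the pappalysin protease genes Pappa and Pappa2, their inhibitor gene Stc2, and the binding-protein genes Igfbp3, Igfbp4, Igfbp5 and Igfbp7. They were picked by symbol among the 55401 genes of a count table, with diet differences in these libraries already known, so their diet values are given as a description with no test. All 10 were found and all 10 passed the filter on low counts, at or above the filter's level in each of the 10 libraries of both diets. The libraries are polyA RNA of eWAT, the fat pad on the epididymis, from 10 samples labelled RandomFoodRestriction (restricted below), which combines intermittent fasting with a 5% cut in calories, and 10 labelled Control. A further label marks contamination with spermatocytes (germ cells in meiosis) as Yes in 3 restricted and 7 control libraries and as No in 7 restricted and 3 control libraries. The labels give neither strain, age nor duration, and do not say that each library is a separate animal. The p-values therefore rest on a spread between samples that may be technical. Libraries are named by diet and the number in their label.

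IGF1 is a secreted growth factor that acts through the IGF1 receptor, a tyrosine kinase close to the insulin receptor, and in fat it is made by adipocytes, stromal cells and macrophages. Binding proteins hold most IGF in complexes that keep it from the receptor. Pappalysins are secreted zinc metalloproteases that cut some of these binding proteins and so free the ligand near cells, and stanniocalcin-2, the product of Stc2, blocks them. The IGF2 receptor does not signal like the IGF1 receptor: it carries IGF2, and enzymes tagged with mannose 6-phosphate, to lysosomes.

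Both proteases share the zinc-binding motif of the metzincin family, and its codons are shown because Pappa is the member on which the diets parted and Pappa2 its closest relative. The stretches are from the GENCODE vM21 transcripts on GRCm38, at chr4:65180914-65180958 on the + strand for Pappa and chr1:158857330-158857374 on the - strand for Pappa2, each in exon 4 of 22. Capitals mark the codons of the zinc-binding histidines, the catalytic glutamate and the conserved glycine.
Pappa: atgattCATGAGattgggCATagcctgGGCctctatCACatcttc
Pappa2: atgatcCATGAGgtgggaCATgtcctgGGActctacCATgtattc
Of these 45 bases, 34 were identical (75.6%).

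The 4 binding-protein genes are shown by the cysteine motif of their shared amino-terminal domain, which holds the ligand. The stretches are at chr11:7213560-7213592 (- strand) for Igfbp3, chr11:99041647-99041679 (+ strand) for Igfbp4, chr1:72873960-72873992 (- strand) for Igfbp5 and chr5:77407820-77407852 (- strand) for Igfbp7, each in exon 1 of the GENCODE vM21 transcript on GRCm38. Capitals mark the cysteine codons of the motif and the glycine codon among them.
Igfbp3: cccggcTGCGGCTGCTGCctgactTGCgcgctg
Igfbp4: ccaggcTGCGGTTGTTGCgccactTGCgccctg
Igfbp5: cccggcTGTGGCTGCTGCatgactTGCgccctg
Igfbp7: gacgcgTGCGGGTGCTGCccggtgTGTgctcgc
Igfbp3 and Igfbp5 were the most alike over these 33 bases, with 90.9% identical. Igfbp4 shared 78.8% with each of them. Igfbp7, whose protein binds IGFs more weakly than the classical binding proteins, shared 51.5% to 60.6% with the other 3.

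The libraries held 18291602 to 44061508 counts in the restricted group and 14306528 to 38789768 in the control group. Adipocyte markers summed to 33818 to 42985 CPM (counts scaled to a common library total) in restricted and 28594 to 37869 CPM in control libraries, and none of the 10 markers was at 0 in all libraries. Skeletal muscle transcripts stood apart in 6 libraries, Restricted 1 and Control 1 to 5, with 913 to 3912 CPM over 12 muscle genes, against 22.3 to 125 CPM in the other 14. Over all 15986 tested genes, 13.6% were called by diet at an adjusted p of 0.05, with 6.31% higher and 7.29% lower in restricted libraries.

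Set per length, as CPM divided by the gene length in kilobases (RPKM), the levels of the 10 genes spanned more than 3 orders of magnitude. Igfbp7 led with a mean of 224 RPKM and a range of 155 to 265 over the 20 libraries, followed by Igfbp4 at 153 RPKM and Igfbp5 at 65.2 RPKM. Igf1 averaged 22.6 RPKM, Igf2r 13.96 RPKM and Stc2 11.1 RPKM. Igfbp3 averaged 5.10 RPKM and Igf1r 1.52 RPKM. Both protease genes lay far below, Pappa2 at 0.202 RPKM and Pappa at 0.164 RPKM. Neighbours in this order overlapped in their ranges for Igfbp7 and Igfbp4, for Igf1 and Igf2r, for Igf2r and Stc2 and for Pappa2 and Pappa, while the remaining neighbours did not overlap. Within single libraries, Igfbp7 was above Igfbp4 in all 20, Igf1 above Igf2r in 19, Igf2r above Stc2 in 17 and Pappa2 above Pappa in 13.

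**Figure D1:**
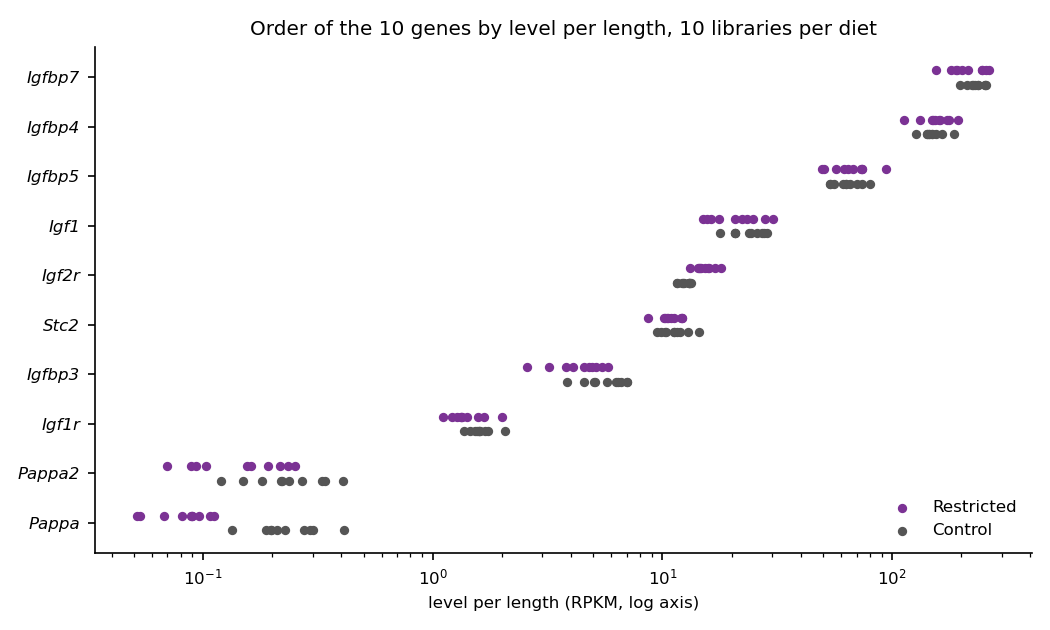
Level per length (RPKM, log axis) of each of the 10 genes, one point per library, restricted above control for each gene. The binding-protein genes Igfbp7, Igfbp4 and Igfbp5 sit at the top and the protease genes Pappa2 and Pappa below 0.41 RPKM in every library.

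By diet, Pappa was the member that stood apart. Its product, pappalysin-1, cuts IGFBP4 and frees IGF from it. Pappa (ENSMUSG00000028370.7, chr4:65124174-65357509, + strand, GRCm38) had 0.571 CPM in the lowest restricted library, a median of 0.982 and 1.23 in the highest, against 1.48, 2.41 and 4.52 CPM in control libraries. All 10 restricted libraries lay below all 10 control libraries, with Restricted 4 the highest of its diet and Control 9 the lowest of its own. Pappa averaged 0.923 ± 0.227 CPM in restricted and 2.68 ± 0.861 CPM in control libraries (SD, n = 10 each). The fitted log2 fold change was −1.45 ± 0.206 (SE), with a 95% interval of −1.87 to −1.02, or 0.367 of the control level. These values rest on 13 to 42 counts per restricted library and 28 to 114 counts per control library, so counting error is not small beside their spread. Over all tested genes, 0.588% had ranges that did not overlap and were lower in restricted libraries, and 0.488% were called and at least 2-fold lower.

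Pappa stood lower in restricted libraries within both contamination labels: 1.05 ± 0.144 CPM (SD, n = 3) against 2.79 ± 0.985 CPM (SD, n = 7) in libraries marked Yes, and 0.870 ± 0.244 CPM (SD, n = 7) against 2.43 ± 0.531 CPM (SD, n = 3) in libraries marked No. Over 33 other fits or sets of libraries the log2 fold change of Pappa ran from −1.57 to −1.31. Without the 6 libraries with muscle transcripts it was −1.52.

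Markers of some cell types moved with Pappa. Adipocyte markers did not, with 2 of 10 called higher and 0 lower. Of 12 markers of progenitors and fibroblasts, 5 were called lower and 0 higher, against 7.29% called lower of all tested genes. The sum of the list was 3441 to 5080 CPM in restricted and 4299 to 5501 CPM in control libraries, led by Col3a1 and Dcn. Per 10000 CPM of these markers, Pappa stood at 1.49 to 3.39 CPM in restricted libraries, with a median of 2.35, against 3.02 to 8.34 CPM in control libraries, with a median of 5.09. On that scale the diets overlapped, and 7 of 10 restricted libraries lay outside the control range. None of 8 markers of mesothelium, the layer that covers the fat pad, was called by diet. Their median log2 fold change was −0.40, however, against −0.28 for the progenitor and fibroblast list. The sum of the mesothelium markers was 148 to 652 CPM in restricted and 157 to 630 CPM in control libraries. Per 100 CPM of these markers, Pappa was at 0.150 to 0.719 CPM in restricted libraries, with a median of 0.329, against 0.291 to 1.80 CPM in control libraries, with a median of 1.09, and 3 of 10 restricted libraries lay outside the control range. Macrophage markers were called lower in 11 of 12 cases and endothelial markers in 3 of 8, with sums given beside Igf1 and Igfbp7. No listed marker of these types was at 0 in all libraries, and the part of these cells in the Pappa result was not tested. In bulk tissue, fewer cells of a type and less RNA per cell cannot be told apart.

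**Figure D2:**
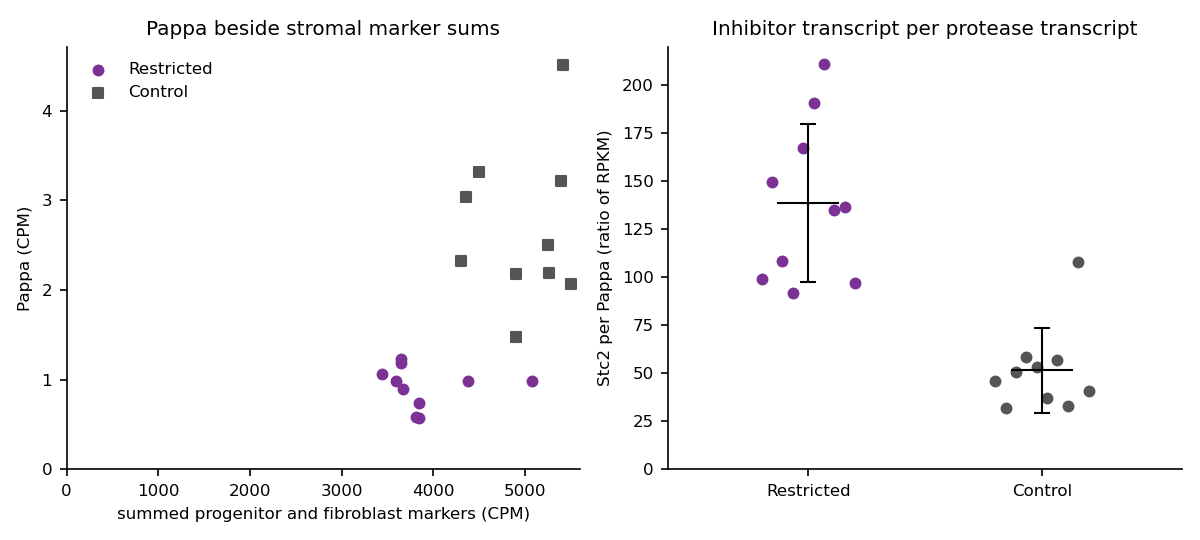
Left, Pappa (CPM) against the summed CPM of 12 progenitor and fibroblast markers, one point per library. Right, the ratio of Stc2 to Pappa (RPKM) per library, with mean and SD. Restricted libraries all lie below control libraries in Pappa, most of them also have lower marker sums, with overlap between the diets, and the median ratio was 136 in restricted and 48.1 in control libraries.

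Pappa2, whose product cuts IGFBP3 and IGFBP5, differed less by diet than Pappa. Pappa2 (ENSMUSG00000073530.11, chr1:158711727-158980490, - strand) had 0.718 CPM in the lowest restricted library, a median of 1.64 and 2.60 in the highest, against 1.24, 2.35 and 4.21 CPM in control libraries. The diets overlapped, with 4 of 10 restricted libraries below every control library. The log2 fold change was −0.52 ± 0.303 (SE), with a 95% interval of −1.15 to 0.11, and Pappa2 was not called. Without the 6 libraries with muscle transcripts, its log2 fold change was −0.25.

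By label, the diet values of Pappa2 stood as follows. In libraries marked Yes it averaged 1.21 ± 0.347 CPM in restricted (SD, n = 3) and 2.98 ± 0.747 CPM in control libraries (SD, n = 7). There Pappa2 ranged from 0.959 to 1.61 CPM in restricted and from 2.24 to 4.21 CPM in control libraries. In libraries marked No it averaged 1.79 ± 0.732 CPM in restricted (SD, n = 7) and 1.55 ± 0.314 CPM in control libraries (SD, n = 3), with the order of the diets turned round. In a fit of edgeR with the product of both terms, the diet difference in Yes minus that in No was −1.51 ± 0.488 on the log2 scale (SE), with an unadjusted p of 0.00554 and an adjusted p of 0.859. That difference did not pass, and 0 of the 15986 genes passed, with 871 at an unadjusted p under 0.05 in edgeR and 1 called by DESeq2.

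Stc2, the gene of the inhibitor that both proteases share, was near equal between the diets. Stc2 (ENSMUSG00000020303.2, chr11:31357307-31370047, - strand) had 45.0 CPM in the lowest restricted library, a median of 55.7 and 63.0 in the highest, against 48.9, 58.0 and 74.9 CPM in control libraries. The groups overlapped over most of their range, with Restricted 10 lowest and Control 9 highest. Its log2 fold change was −0.01 ± 0.078 (SE), with a 95% interval of −0.17 to 0.15.

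Set against the transcript of Pappa, Stc2 stood higher in restricted libraries, with Pappa lower and Stc2 itself near equal. The ratio of Stc2 to Pappa in RPKM was 91.7 in the lowest restricted library, with a median of 136 and a highest value of 211, against 31.7, 48.1 and 108 in control libraries. Of the restricted libraries, 7 lay above every control library, and Control 9, the control library with least Pappa and most Stc2, had the highest control ratio. Against the RPKM of Pappa and Pappa2 together, the ratio of Stc2 was 28.2 to 71.4 in restricted libraries, with a median of 51.2. In control libraries that ratio was 17.6 to 39.2, with a median of 23.3. The ratio of Igfbp4 to Pappa, substrate to protease, was 1051, 1884 and 3110 in restricted libraries as lowest, median and highest, against 347, 634 and 1080 in control libraries. In 9 of 10 restricted libraries it was above every control library. All of these ratios hold the Pappa values that chose the gene and add no test of their own.

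**Figure D3:**
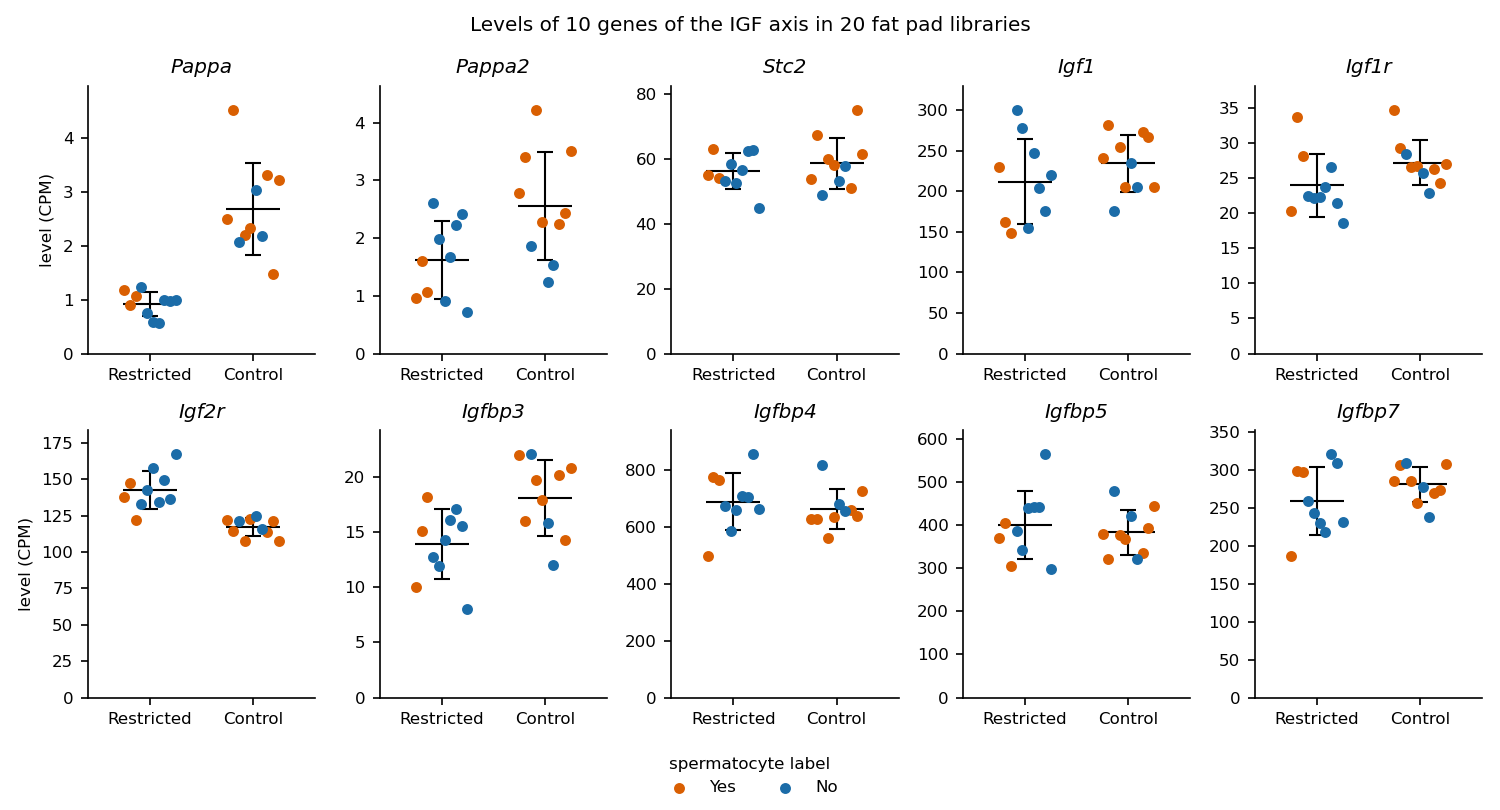
Level (CPM) of each of the 10 genes by diet, one point per library coloured by the spermatocyte label, with mean and SD. The diets separate fully for Pappa, nearly so for Igf2r, and overlap for the other 8 genes.

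The receptors differed from each other. Igf2r (ENSMUSG00000023830.14, chr17:12682406-12769664, - strand), the receptor that routes IGF2 to lysosomes, had 122 CPM in the lowest restricted library, a median of 140 and 167 in the highest, against 108, 119 and 124 CPM in control libraries. In 9 of 10 restricted libraries it was above every control library, and Restricted 3 was the one inside the control range. Igf2r averaged 143 ± 13.0 CPM in restricted and 117 ± 6.08 CPM in control libraries (SD, n = 10 each). The log2 fold change was 0.25 ± 0.0533 (SE), with a 95% interval of 0.14 to 0.36, or 1.19 times the control level. Igf2r is imprinted in the mouse and overlaps the antisense RNA gene Airn, and without a stated strand setting their reads cannot be told apart. Of 10 adipocyte markers, 2 were called higher and 0 lower, against 6.31% higher of all tested genes. The summed level of 8 smooth muscle and pericyte markers was 650 to 818 CPM in restricted and 545 to 641 CPM in control libraries. That sum was led by Rgs5, at a mean of 274 CPM, and Cspg4, at 92.5 CPM. Of the 8 markers, 1 was called in each direction, and their median log2 fold change was −0.10, against the direction of the sum. The part of these cells in the Igf2r result was not tested.

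Igf1r (ENSMUSG00000005533.10, chr7:67952827-68233668, + strand), the signalling receptor, had 18.5 CPM in the lowest restricted library, a median of 22.4 and 33.8 in the highest, against 22.9, 26.6 and 34.7 CPM in control libraries. The diets overlapped, although 6 of 10 restricted libraries lay below every control library, and Restricted 2 was the highest of its diet. Igf1r had a log2 fold change of −0.10 ± 0.0896 (SE), with a 95% interval of −0.29 to 0.08. Per transcript length, Igf2r stood 7.83 to 16.2 times above Igf1r in restricted libraries, with a median of 11.04, against 6.35 to 9.15 times in control libraries, with a median of 7.73.

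The start of Igf2r is shown because it was the one member called higher and the one whose promoter held an E-box. Promoters of 9 of the 10 members were matched by symbol in a RefSeq table of 250 bases before to 50 after the start on GRCm38.p6, and Pappa had no entry. The Igf2r window spans chr17:12769657-12769956 on the - strand, and capitals mark the extended E-box TCACGTGA.
Igf2r: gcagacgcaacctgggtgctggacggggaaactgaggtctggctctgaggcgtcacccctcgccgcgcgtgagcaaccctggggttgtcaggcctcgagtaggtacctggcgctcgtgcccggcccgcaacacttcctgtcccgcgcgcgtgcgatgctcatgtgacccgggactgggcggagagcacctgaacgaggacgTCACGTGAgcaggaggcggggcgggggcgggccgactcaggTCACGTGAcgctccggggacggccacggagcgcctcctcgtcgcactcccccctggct
The copies lie at −49 to −42 and at −8 to −1 relative to the start. TCACGTGA is its own reverse complement and contains the E-box CACGTG. Of 32851 promoters of this length, read on both strands, 7.15% held CACGTG, 0.974% held TCACGTGA and 0.0578% held it at least 2 times. None of the other 8 windows of members held CACGTG. Among 6 genes of mannose 6-phosphate sorting with a window, taken up below, Gnptg, Nagpa and Gga2 held CACGTG and were not called by diet. Gnptab, which was called, did not hold it. The TATA box letters TATAAA were in the Igfbp4 window alone among the 9, against 13.6% of all promoters, and TTCNNNGAA, the letters of a STAT-type site, were in none of the 9, against 8.30% of all promoters. A match of letters describes the sequence and does not show that a factor binds there.

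Igf1 itself, the ligand gene, was not called. Igf1 (ENSMUSG00000020053.18, chr10:87858265-87930895, + strand) had 149 CPM in the lowest restricted library, a median of 212 and 300 in the highest, against 176, 238 and 281 CPM in control libraries. Restricted libraries spread on both sides of the control range, 4 below it and 1 above. For Igf1 the log2 fold change was −0.16 ± 0.141 (SE), with a 95% interval of −0.45 to 0.13. As with Pappa2, the direction differed by label, at 180 ± 43.9 CPM in restricted (SD, n = 3) and 247 ± 31.2 CPM in control libraries (SD, n = 7) marked Yes, and 226 ± 52.8 CPM in restricted (SD, n = 7) and 206 ± 29.6 CPM in control libraries (SD, n = 3) marked No. The product term of edgeR for Igf1 was −0.59 ± 0.25 (SE), with an unadjusted p of 0.0288 and an adjusted p of 0.859, which did not pass.

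Macrophages are a known source of Igf1 in fat, and 11 of 12 macrophage markers were called lower, with a sum of 1062 to 1681 CPM in restricted and 1446 to 1970 CPM in control libraries, led by Lyz2 and Csf1r. Per 1000 CPM of these markers, Igf1 was at 117 to 239 CPM in restricted libraries, with a median of 158, against 90.3 to 170 CPM in control libraries, with a median of 148. The part of macrophages in the Igf1 values was not tested. Igf1 overlaps the antisense gene Igf1os, and their reads cannot be told apart here.

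Among the binding proteins none was called by diet. Igfbp3 (ENSMUSG00000020427.11, chr11:7206086-7213897, - strand), the main carrier of IGF in blood, had 8.03 CPM in the lowest restricted library, a median of 14.6 and 18.2 in the highest, against 12.01, 18.8 and 22.01 CPM in control libraries. The diets overlapped, but 5 of 10 control libraries were above every restricted library. The log2 fold change was −0.32 ± 0.146 (SE), with a 95% interval, not adjusted for the number of genes, of −0.62 to −0.02. Without the 6 libraries with muscle transcripts it was −0.08.

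Igfbp4 (ENSMUSG00000017493.12, chr11:99041244-99051701, + strand), the substrate of pappalysin-1, had 498 CPM in the lowest restricted library, a median of 691 and 856 in the highest, against 562, 648 and 819 CPM in control libraries. Igfbp5 (ENSMUSG00000026185.8, chr1:72857932-72874884, - strand), which both pappalysins can cut, had 297, 395 and 564 CPM in restricted libraries, against 321, 378 and 479 CPM in control libraries. For both genes the diets overlapped over nearly all of the range, with log2 fold changes of 0.02 ± 0.0859 (SE; 95% interval −0.16 to 0.20) for Igfbp4 and −0.01 ± 0.107 (SE; 95% interval −0.23 to 0.21) for Igfbp5.

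Igfbp7 (ENSMUSG00000036256.13, chr5:77349240-77408041, - strand), a matrix-bound relative found around vessels, had 187 CPM in the lowest restricted library, a median of 251 and 320 in the highest, against 238, 282 and 310 CPM in control libraries. The restricted libraries spread more widely, 4 below the control range and 1 above it. Igfbp7 had a log2 fold change of −0.10 ± 0.0935 (SE), with a 95% interval of −0.30 to 0.09. Of 8 endothelial markers, 3 were called lower and 0 higher, with a sum of 553 to 902 CPM in restricted and 570 to 1033 CPM in control libraries, and their part in the Igfbp7 values was not tested. Igfbp7 overlaps Polr2b on the other strand, and reads shared there cannot be told apart. Of the RPKM summed over the 4 binding proteins, Igfbp7 made up 48.4% ± 3.02 in restricted and 51.4% ± 2.35 in control libraries (SD, n = 10 each), and Igfbp4 made up 35.4% ± 2.02 in restricted and 33.2% ± 2.11 in control libraries.

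In sum over the members, 2 of 10 were called by diet, Pappa lower and Igf2r higher, against 13.6% of all tested genes. The median log2 fold change was −0.10 over the 10 genes and 0.01 over all tested genes, and the median absolute value was 0.13 over the 10 genes and 0.14 over all. Since diet differences were known when the genes were chosen, nothing is read from these counts. Pappa was not called in libraries marked Yes alone. Igf2r was not called in libraries marked Yes or No alone, or with the RNA integrity number as a term in the 17 libraries that have one. Pappa2 was called in 1 of 33 alternatives, libraries marked Yes alone, and nothing is read from that call.

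**Figure D4:**
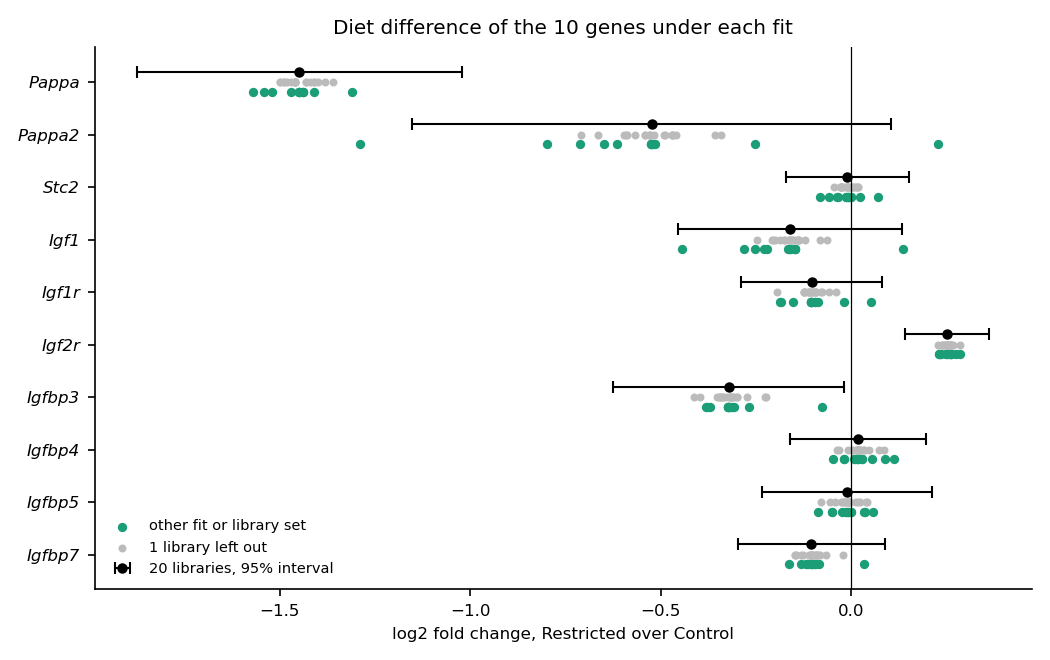
Log2 fold change of each gene, restricted over control. Black, the fit of 20 libraries with its 95% interval. Grey, fits with 1 library left out. Green, the other fits or sets of libraries. Pappa and Igfbp3 lie left of 0 and Igf2r right of 0 in every fit. The other 7 genes lie on both sides of 0, in 1 of the 33 alternatives for Pappa2, Igf1, Igf1r and Igfbp7 and in 6 to 9 for Stc2, Igfbp4 and Igfbp5.

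The contamination label was not used to choose the genes, and its contrast gives a test of them. In edgeR's quasi-likelihood fit with diet as a term, 5.30% of all tested genes differed between libraries marked Yes and No, with 5.04% higher in Yes, and 0 of the 10 members did. Of the lists that fit the label, 10 germ cell markers summed to 4.05 to 104 CPM in Yes and 2.69 to 35.0 CPM in No libraries, and 10 markers of epididymis and efferent ducts to 15.5 to 351 CPM in Yes and 2.17 to 72.0 CPM in No libraries. Adjusted p-values of the members ran from 0.301 for Igf1r to 0.967 for Igf1. Igf1r had the smallest p, with a log2 fold change of 0.20 ± 0.0896 (SE; Yes over No) and an unadjusted p of 0.0332, the one member under 0.05 before adjustment. Pappa had a log2 fold change of 0.23 with a 95% interval of −0.20 to 0.66, and Pappa2 one of 0.21 with an interval of −0.42 to 0.84, so for both proteases the label difference is known only loosely. Igf2r had −0.08 with an interval of −0.19 to 0.03. In none of 32 alternatives was a member called by label, and in none of 26 was one called in the product of diet and label. In edgeR's fit of that product to all 20 libraries, adjusted p-values of the members ran from 0.859 to 0.987.

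Single libraries stood at the edge for several members. Restricted 10 was the lowest restricted library for Igf1r, Pappa2, Stc2, Igfbp3 and Igfbp5 and the highest for Igf2r. Restricted 1, the restricted library with muscle transcripts, was the lowest for Igfbp4 and Igfbp7. Control 3, with muscle transcripts and the fewest counts of all libraries, was the highest control library for Igfbp3, Igfbp4, Igfbp5 and Igfbp7 and the lowest for Igf1 and Stc2. The coefficient of variation was smallest for Igf2r, at 9.14% in restricted and 5.19% in control libraries. It was largest for Pappa2, at 42.1% in restricted and 36.7% in control libraries.

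After the mean of each diet and label cell was subtracted from log2 CPM, pairs of members were correlated over the 20 libraries. Of 45 pairs, 0 passed after Benjamini-Hochberg adjustment, in permutation tests within the cells. Igf1r and Igfbp3 came closest, with Pearson's r of 0.735 (permutation p = 0.00138, adjusted p = 0.0621) and Spearman's rho of 0.660 (permutation p = 0.00706, adjusted p = 0.159). Without the 2 libraries farthest from the median of Igf1r, r was 0.747, and in the 14 libraries without muscle transcripts it was 0.707. Igfbp4 and Igfbp7 had an r of 0.752 (permutation p = 0.0105, adjusted p = 0.118), which was 0.570 without the 2 libraries farthest from the median of Igfbp4.

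Genes outside the set whose residuals ran most like each member were taken as a description, by Pearson's r over the same 20 libraries, which share depth and dissection. They are the highest of all tested genes with a symbol, a choice that yields a high r by itself, and were not tested. Pappa was followed most closely by Cnbd2 (r = 0.741) and Klhl35 (r = 0.723), and Pappa2 by Rcan2 (0.857) and Frmd6 (0.819). The closest genes were Fgd3 (0.815) and Gm45854 (0.704) for Stc2, Nabp1 (0.883) and Tcf7l2 (0.867) for Igf1, Cerk (0.873) and Rpgrip1 (0.872) for Igf1r, and Abca3 (0.796) and Slc2a5 (0.790) for Igf2r. For the binding proteins they were Gabpb1 and Dnajc27 (0.864 each) for Igfbp3, Evc2 (0.925) and Fzd5 (0.920) for Igfbp4, Tgfb1i1 (0.838) and Slc41a2 (0.835) for Igfbp5, and Zfp622 (0.906) and Tusc1 (0.899) for Igfbp7. Klhl35, Gm45854 and Rpgrip1 were low, at means of 0.538, 0.563 and 0.937 CPM.

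Around the members, 47 further genes of the pathway were looked up in 4 lists, and 45 passed the filter on low counts and were tested. Of these, 4 were higher and 6 lower in restricted libraries, 22.2% against 13.6% of all tested genes, with a median log2 fold change of −0.03. The lists, like the members, were chosen with earlier results of these data known, so nothing is read from that share. For the same reason, the adjusted p-values by diet given below for genes of these lists are not independent support. By the contamination label 0 of the 45 were called.

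Signalling below the receptors, the longest of the 4 lists, held most of the calls, with 3 higher and 4 lower of 20 genes tested. That was 35% of the list, against 13.6% of all tested genes, and nothing is read from that share either. Shc1, an adaptor of the activated receptors, had 104 CPM in the lowest restricted library, a median of 109 and 115 in the highest, against 116, 124 and 131 CPM in control libraries, without overlap, as for 0.588% of all tested genes on the lower side. Its log2 fold change was −0.19 ± 0.0367 (SE; adjusted p = 0.00201, edgeR). Irs1, the docking protein that joins insulin and IGF1 receptors to the PI3K pathway, averaged 30.3 ± 4.66 CPM in restricted and 39.9 ± 4.89 CPM in control libraries (SD, n = 10 each), a log2 fold change of −0.42 ± 0.0942 (SE; adjusted p = 0.00495, edgeR). Both calls held when any 1 library was left out, but Shc1 did not pass in libraries marked Yes or No alone (adjusted p = 0.147 and 0.156), nor Irs1 in libraries marked Yes alone (adjusted p = 0.24) or with the RNA integrity number as a term (adjusted p = 0.11). Irs2 was lower as well, at a log2 fold change of −0.24 ± 0.109 (SE), but was not called (adjusted p = 0.144, edgeR). Akt1, Foxo1 and Mtor, at −0.10, −0.01 and 0.08, were not called either.

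Grb14, an adaptor that restrains the insulin receptor, fell by 0.56 on the log2 scale (SE 0.159; adjusted p = 0.0239, edgeR). Its log2 fold change was −0.40 without Control 6 (adjusted p = 0.118) and −0.47 without Restricted 1 (adjusted p = 0.0591), neither of which passed. Tsc1, a brake on mTORC1, fell by 0.21 (SE 0.0623; adjusted p = 0.0308, edgeR). Without Restricted 3, Control 3 or Control 6 its log2 fold change was −0.20, −0.20 and −0.19, and the adjusted p of 0.0609 to 0.0816 did not pass. Named after their values were seen, Grb10, Akt2 and Rps6kb1 were the 3 higher genes, at log2 fold changes of 0.18, 0.23 and 0.16 with adjusted p-values of 0.0327, 0.0461 and 0.0493 in edgeR. Grb10 did not pass without Restricted 2, Control 3, Control 6 or Control 7 (adjusted p = 0.053 to 0.0937). Akt2 kept its call when Restricted 4, 6, 7 or 8 or Control 8 was left out, and Rps6kb1 when Restricted 2, 8 or 9 or Control 1 or 4 was. With each of the other 15 libraries left out in turn, the adjusted p was 0.0544 to 0.0979 for Akt2 and 0.05 to 0.155 for Rps6kb1.

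Other fits ended most of these calls too. Without the 6 libraries with muscle transcripts, the adjusted p was 0.0976 for Grb14, 0.108 for Tsc1, 0.0755 for Grb10, 0.387 for Akt2 and 0.128 for Rps6kb1. With the RNA integrity number as a term, in the 17 libraries that have one, it was 0.132 for Grb14, 0.377 for Tsc1, 0.266 for Grb10, 0.23 for Akt2 and 0.304 for Rps6kb1. The fit thus differs in its libraries as well as in the term: over all genes, 1445 were called in these 17 libraries without the term and 392 with it. With the replicate number as a block it was 0.175 for Grb14, 0.134 for Grb10, 0.14 for Akt2 and 0.134 for Rps6kb1, while Tsc1 passed at 0.0459. In libraries marked Yes or No alone, none of the 5 genes passed.

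Of 10 tested genes among the other ligands, receptors and binding proteins, 1 was called, 10% against 13.6% of all tested genes. Insrr, an orphan relative of the insulin receptor, averaged 0.356 ± 0.142 CPM in restricted and 0.775 ± 0.309 CPM in control libraries (SD, n = 10 each), a log2 fold change of −1.06 ± 0.289 (SE; adjusted p = 0.0177, edgeR). It overlaps Pear1 on the other strand, whose counts were far higher, and did not pass without Control 7 (adjusted p = 0.0862), without the 6 libraries with muscle transcripts (0.0874), with the integrity number as a term (0.223), with the replicate block (0.0507) or in libraries marked Yes (0.185) or No alone (0.234). Igf2, the second ligand, stood at 0.351 ± 0.232 CPM in restricted and 0.665 ± 0.283 CPM in control libraries (log2 fold change −1.03, adjusted p = 0.0657, edgeR), which did not pass. Insr, the insulin receptor gene, was at 192 ± 15.5 CPM in restricted and 179 ± 13.98 CPM in control libraries and was not called. Igfbp1 and Igfbpl1 did not pass the filter on low counts and were not tested, with a median of 0 CPM in restricted libraries for both.

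Growth hormone raises Igf1 in many tissues through its receptor and STAT5. Of 8 genes of this input 1 was called, 12.5% against 13.6% of all tested genes. Socs3, a feedback inhibitor of cytokine receptors, was that gene, at 8.97 ± 2.88 CPM in restricted and 12.7 ± 3.79 CPM in control libraries (log2 fold change −0.59 ± 0.181, adjusted p = 0.0346, edgeR). It did not pass without Restricted 1, Restricted 5, Restricted 6, Control 3 or Control 7 (adjusted p = 0.0501 to 0.107), nor without the 6 libraries with muscle transcripts (0.203), with the integrity number as a term (0.44) or without the label as a term (0.0645). In libraries marked Yes alone the log2 fold change of Socs3 was −0.22 (adjusted p = 0.515), and in libraries marked No alone it was −0.94 (adjusted p = 0.078). Cish, a target of STAT5, spread from 4.19 CPM to 82.9 CPM in restricted libraries, with a median of 6.31, and from 3.20 to 156 CPM in control libraries, with a median of 58.0. Its log2 fold change of −1.90 ± 0.683 did not pass (adjusted p = 0.0677, edgeR). Ghr, the growth hormone receptor, was at 1082 ± 138 CPM in restricted and 1024 ± 97.2 CPM in control libraries, with an adjusted p of 0.966.

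The tag that Igf2r reads on lysosomal enzymes is made and handled by 7 further genes. Of these 1 was called, 14.3% against 13.6% of all tested genes. Gnptab, the catalytic subunit gene of the phosphotransferase that starts the tag, averaged 111 ± 22.4 CPM in restricted and 88.8 ± 7.22 CPM in control libraries (SD, n = 10 each), a log2 fold change of 0.31 ± 0.097 (SE; adjusted p = 0.0357, edgeR). Without Restricted 1 it was 0.15 (adjusted p = 0.15), and without Restricted 10, Control 2 or Control 7 the adjusted p was 0.0511 to 0.0759. Without the 6 libraries with muscle transcripts, Restricted 1 among them, the log2 fold change of Gnptab was 0.14 (adjusted p = 0.317), and it did not pass with the integrity number as a term (0.119), with the replicate block (0.0683) or in libraries marked Yes (0.232) or No alone (0.171). M6pr, the smaller mannose 6-phosphate receptor, was at 154 ± 6.79 CPM in restricted and 144 ± 9.31 CPM in control libraries and was not called (adjusted p = 0.257).

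**Figure D5:**
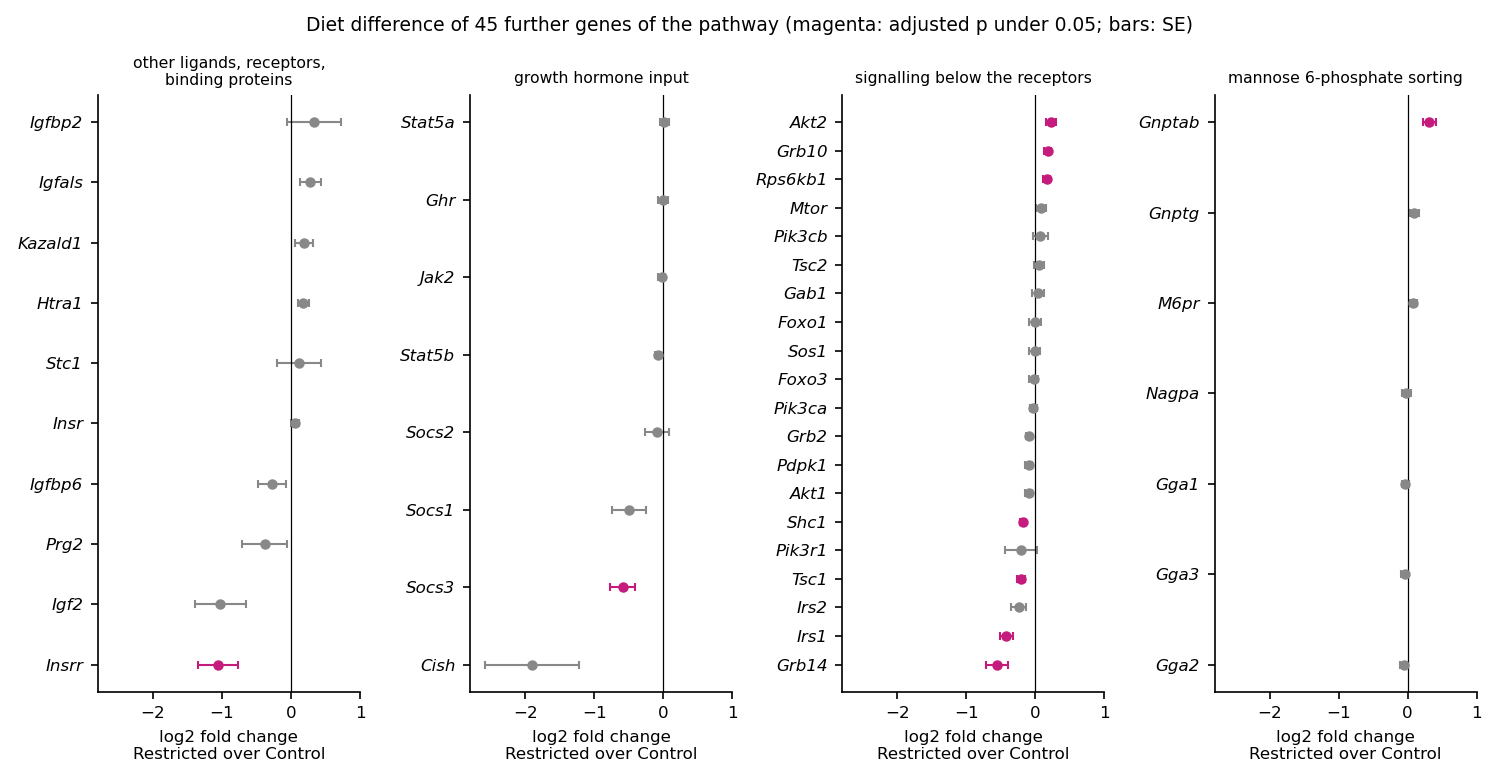
Log2 fold change (restricted over control) with SE of the 45 further pathway genes, in 4 lists, with magenta for an adjusted p under 0.05. In the signalling list 3 genes lie right and 4 left of 0 among those in magenta.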

How the data were processed

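PolyA libraries of the Universal Plus mRNA-seq kit were read as 52-bp pairs, per the labels' protocols. Their extraction text names QUAD, but the tissue label, eWAT, was followed. The authors deposited whole-number counts per gene, with coordinates and a gene length. Tools listed in the submitters' processing notes are bcl2fastq 4.0.3, STAR and Salmon, with the build GRCm38 and without roles. How reads were counted, with which annotation and strand setting, is not given in the sources used here.

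The fits used edgeR 4.0.16 in R 4.3.3, with filterByExpr at a minimum count of 10, TMM factors, and a quasi-likelihood fit with label and diet as terms, or with their product as well. Tests were two-sided, with Benjamini-Hochberg adjustment at 0.05 over 15986 genes. An SE is the absolute log2 fold change over the root of F. CPM are on TMM-scaled totals, RPKM use the deposited length, and log2 CPM for correlations has a pseudocount of 0.5. Residuals were permuted 100000 times within diet and label cells, two-sided.

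The members and lists were chosen with earlier results of these data known. A further listed gene is not reported here. Named by rule were all members, every called gene of a list with at most 4, otherwise the 4 with the smallest p, and the 2 genes most like each member. Other genes of the lists, among them Cish, Igf2 and further genes not called, were named outside this rule with their values seen. Alternatives were DESeq2 1.42.0, other scaling (RLE, upper quartile), other filters, other terms, subsets of libraries and each library left out. Code was tested on simulated data. Same-diet libraries differed beyond sampling noise in each pair (lowest chi-square per degree of freedom 9.93). The RNA integrity number was 6.5 to 7.9 in 8 restricted and 7.1 to 7.9 in 9 control libraries. Sequences came from RefSeq and GENCODE vM21 tables.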

Additional observations from a re-analysis of the deposited data

How the results depend on the processing

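The count of 2173 genes called by diet fell to 927 without the 6 libraries with muscle transcripts, 1445 in the 17 libraries with an integrity number, 392 with that number as a term, 400 in libraries marked No alone and 239 in libraries marked Yes alone, and ran from 1506 to 2274 without single libraries. The count of 848 by label was 563 in control libraries alone and 709 to 944 without single libraries. The count of 0 for the product of diet and label was 5 without the 6 libraries, 1 by DESeq2, 1 without Control 3 and 0 to 1 without single libraries. With the replicate block, 1388 genes were called by diet. Restricted and control libraries with the same number correlated at −0.0927 to 0.167 in their deviations from their means, with 2 of 10 pairs over 0.1, and 0 restricted libraries correlated best with their own number, so the numbers were not taken to pair samples. Neither Pappa nor Igf2r changed direction in any of 33 alternatives. The diet values of Pappa2 were −1.29 in libraries marked Yes alone and 0.23 in libraries marked No alone, and those of Igf1 were −0.45 and 0.14. At 13 to 114 counts per library for Pappa and 16 to 104 for Pappa2, depth limits the precision of both.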
